A study of Mus musculus with 2 samples.

Results

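The miRs of the imprinted Dlk1-Dio3 locus were followed in small RNA sequencing of mouse sperm. The members were chosen by name, by a rule that uses no read count, although the locus itself was picked with earlier results of these data known. They are every entry of the deposited count tables whose name belongs to 1 of 47 hairpins of the maternally expressed side of this locus, with both arms. This gave 94 of 1886 mature miR entries, and none of the entries that join several names was among them. The 2 libraries are biological replicates of 1 condition, sperm of naive WT C57BL/6J mice aged 3 months, with no transgene, deletion or treatment named in the labels. Sperm had been released from the epididymis and treated with a hypotonic detergent buffer to lyse other cells, and the number of animals behind each library is not given in the sources used here. The count tables carry a name that mentions a treatment, which goes against the label naive and was not resolved. Replicate 1 held 4049599 miR reads and replicate 2 held 5648067. With 1 condition there is no contrast between groups, so no test was made and every value is a description of these libraries.

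The Dlk1-Dio3 locus is a large imprinted domain on mouse chromosome 12. Its protein-coding genes, Dlk1, Rtl1 and Dio3, are expressed from the paternal chromosome, while long non-coding RNAs (Meg3, Rian and Mirg), snoRNAs and one of the largest miR clusters of mammals are expressed from the maternal chromosome. The choice is set by a differentially methylated region between Dlk1 and Meg3, which acquires its methylation in the male germ line. The miRs are known from embryo, placenta and brain, and several of them act at synapses.

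The sequences shown first belong to the entries that held most reads of the locus and to a few whose sequences overlap. They are RefSeq mature sequences on build GRCm38.p6, available for 90 of the 94 entries. Entries without one are miR-485-5p, miR-487b-3p, miR-376c-3p and miR-539-3p. All lie on the plus strand of chromosome 12. Capitals mark the seed, bases 2 to 8 from the 5′ end, which pairs with target RNAs. The 6 entries with the most reads are listed, and no pair of them shares a seed.
miR-127-3p: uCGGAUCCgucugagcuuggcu
miR-411-5p: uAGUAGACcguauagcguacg
miR-541-5p: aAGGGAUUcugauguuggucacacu
miR-434-3p: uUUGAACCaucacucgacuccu
miR-410-3p: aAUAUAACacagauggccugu
miR-379-5p: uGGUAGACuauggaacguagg

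These 6 map to chr12:109592888-109592909, chr12:109710190-109710210, chr12:109742422-109742446, chr12:109594565-109594586, chr12:109743764-109743784 and chr12:109709065-109709085 in the same order. miR-541-5p has 25 bases, against a median of 22 over the locus entries. No other miR of the RefSeq table holds the seed of miR-127-3p, miR-541-5p or miR-434-3p. The seed of miR-410-3p is shared with miR-344d-3p and miR-344e-3p, which lie outside the locus and had at most 1 read in a library. The seed of miR-379-5p is shared with miR-1193-5p of the same region, which had no read in either library, and that of miR-411-5p with miR-7229-5p, which had none either.

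The locus took a small share of the miR reads, and 1 miR carried most of it. Its 94 entries held 2929 reads in replicate 1, or 0.0723% of the miR reads (Wilson 95% interval 0.0698% to 0.0750%). In replicate 2 they held 3277 reads, or 0.0580% (0.0561% to 0.0600%), and the mean was 0.0652% ± 0.0101 (SD, n = 2 libraries). The intervals do not overlap, but they cover counting error only, since reads without molecular identifiers can be PCR copies. In RNA from many cells, fewer cells that carry a miR and less of it per cell cannot be told apart. Scaled to 1000000 miR reads (CPM), the locus stood at 723 CPM in replicate 1 and 580.2 CPM in replicate 2.

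At least 1 read was present for 30 of the 94 entries in replicate 1, where 25.7% of all entries had a read. In replicate 2 there were 33, against 23.4% of all entries. Both libraries had a read for 24 entries, or 25.5% of the locus entries, against 20% of all 1886 entries. At a minimum of 3 reads per library 16 of the 94 locus entries were left, and 324 of all 1886 entries, which are nearly equal shares. At a minimum of 10 reads per library the locus share was the lower, with 7 locus entries left, or 7.45%, against 12.9% of all entries. A further 6 entries had reads in replicate 1 alone, or 6.38% against 5.62% of all entries, and 9 in replicate 2 alone, or 9.57% against 3.39%. These 15 had a median of 2 reads and at most 7. No read in either library was found for 55 locus entries, or 58.5%, against 70.9% of all entries. Counted by hairpin name, 30 of 47 had a read in some library (63.8%, against 34.8% of all names outside joined entries), 19 had reads in both (40.4%, against 24.8%) and 17 had none (36.2%, against 65.2%). The 47 locus names have 94 entries, while all 1886 entries have 1103 names. A name with both arms listed has more chances to show a read, so these shares are not fully alike. The smallest abundance these depths can show, taken as 3 reads, is 0.741 CPM in replicate 1 and 0.531 CPM in replicate 2, so an entry without a read may still be present below these levels.

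**Figure D1:**
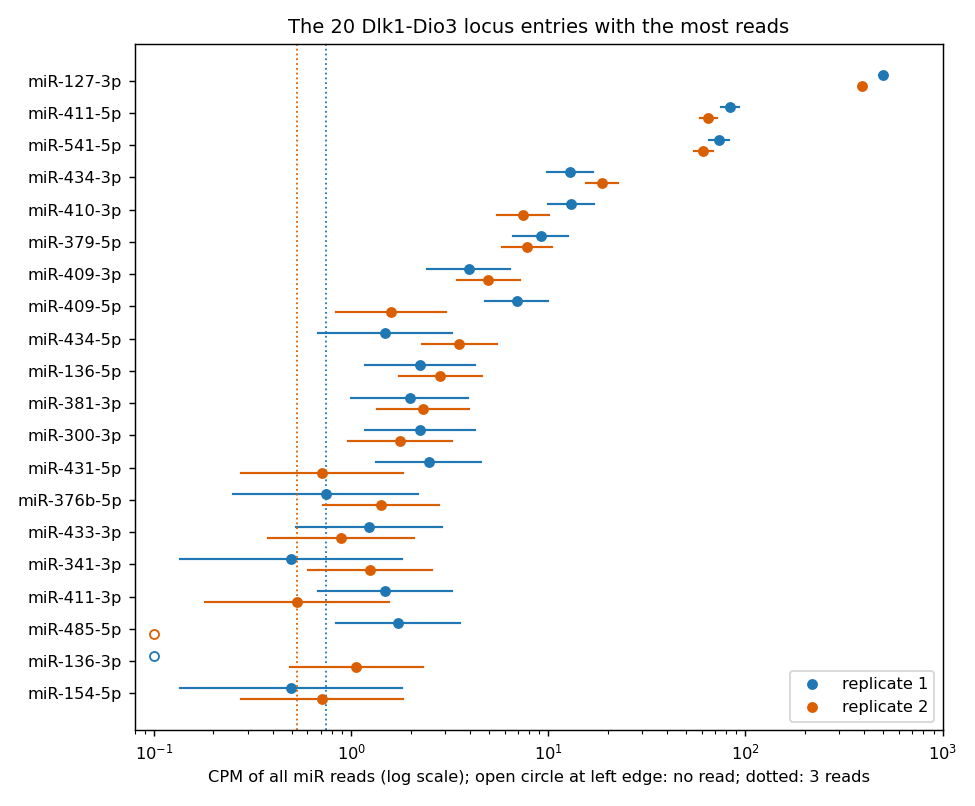
CPM on a log axis of the 20 Dlk1-Dio3 locus entries with the most reads, in replicate 1 (blue) and replicate 2 (orange), with Wilson 95% intervals; dotted lines mark 3 reads and open circles an entry without a read. miR-127-3p stands at 498 and 391 CPM, and from miR-409-3p downward every point is under 10 CPM.

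miR-127-3p was the most abundant miR of the locus. It comes from a hairpin antisense to Rtl1 and is known to direct cleavage of the Rtl1 transcript, to which it is fully complementary. Replicate 1 held 2016 reads of it (498 CPM, 477 to 520.0) and replicate 2 held 2208 (391 CPM, 375 to 408). The mean of 444 ± 75.6 CPM (SD, n = 2) ranked 41st among all entries. Its neighbours in that order were miR-181c-5p, with 379.8 and 566 CPM, and miR-184-3p, with 616 and 208 CPM, and the CPM ranges of these neighbours both overlap that of miR-127-3p. miR-127-3p made up 68.8% of the locus reads in replicate 1 and 67.4% in replicate 2. Without it the locus held 913 and 1069 reads, or 0.0225% and 0.0189% of the miR reads.

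miR-411-5p and miR-541-5p came next, at nearly equal levels. miR-411-5p had 337 reads (83.2 CPM, 74.8 to 92.6) in replicate 1 and 366 reads (64.8 CPM, 58.5 to 71.8) in replicate 2. miR-541-5p had 298 reads (73.6 CPM, 65.7 to 82.4) and 346 reads (61.3 CPM, 55.1 to 68.1). The counting intervals of the pair overlap in each library. Together with miR-127-3p they held 90.5% of the locus reads in replicate 1 and 89.1% in replicate 2.

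A group of 3 entries lay between 7.44 and 18.8 CPM. miR-434-3p, from another hairpin antisense to Rtl1, had 52 reads (12.8 CPM) in replicate 1 and 106 reads (18.8 CPM) in replicate 2. miR-410-3p had 53 reads (13.1 CPM) and 42 reads (7.44 CPM), and miR-379-5p had 37 reads (9.14 CPM) and 44 reads (7.79 CPM). Their order differed between the libraries, with miR-410-3p and miR-434-3p nearly level in replicate 1. With these 3, the 6 leading entries held 2793 of the 2929 locus reads in replicate 1 and 3112 of 3277 in replicate 2.

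The remaining named entries had at most 28 reads in a library. miR-409-3p had 16 and 28 reads in replicates 1 and 2, and miR-409-5p had 28 and 9. miR-434-5p had 6 and 20 reads, miR-136-5p had 9 and 16, miR-381-3p had 8 and 13 and miR-300-3p had 9 and 10. At these counts the Wilson intervals of the libraries overlap for each of the last 4. miR-431-5p had 10 and 4 reads, miR-376b-5p 3 and 8, miR-433-3p 5 and 5, miR-341-3p 2 and 7, and miR-411-3p 6 and 3. miR-154-5p had 2 and 4 reads. miR-485-5p had 7 reads in replicate 1 and none in replicate 2, and miR-136-3p had none in replicate 1 and 6 in replicate 2. The 74 entries outside these 20 held 25 reads in replicate 1 and 32 in replicate 2 together, which is 0.854% and 0.977% of the locus reads. Among them was miR-134-5p, which limits the growth of dendritic spines through Limk1, with no read in replicate 1 and 2 reads in replicate 2. miR-134-3p had no read in either library.

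The locus is ordered along chromosome 12, and its hairpins fall into 4 groups by place. In RefSeq coordinates on GRCm38.p6 the 47 hairpins span 180.1 kb, chr12:109563692-109743795, on the plus strand. The first group lies around Meg3 and before Rtl1. Its 6 hairpins, miR-770, miR-673, miR-493, miR-337, miR-540 and miR-665, had no read in replicate 1 and 2 reads in replicate 2, both on miR-540-5p. In the GENCODE annotation of GRCm38, miR-770 lies in Meg3 and overlaps an exon of it, and the other 5 lie in no annotated gene on either strand apart from their own.

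The second group is antisense to Rtl1. Its 5 hairpins, miR-431, miR-433, miR-127, miR-434 and miR-136, lie within 4942 bases, and GENCODE places each inside an exon of Rtl1 on the minus strand. Every one of the 5 had reads in both libraries, against 24.8% of all hairpin names, though miR-433 had only 5 in each. The group held 2101 reads in replicate 1 and 2365 in replicate 2, which was 71.7% (70.1% to 73.3%) and 72.2% (70.6% to 73.7%) of the locus reads. Without miR-127-3p, its reads numbered 85 and 157. The 5 neighbours differed widely in their reads. The miR-127 hairpin held 404 times the reads of the miR-433 hairpin in replicate 1 (exact 95% interval 173 to 1245) and 442 times in replicate 2 (189 to 1361), with 1007 bases between them. Against the miR-434 hairpin the ratio was 34.8 (26.8 to 46.0) in replicate 1 and 17.5 (14.6 to 21.1) in replicate 2, so this ratio differed between the libraries by more than counting error.

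Inside Rian, the host of many C/D box snoRNAs, lie miR-341 and miR-370, neither of which overlaps an exon of it. miR-341-3p had 2 and 7 reads, and miR-341-5p and both arms of miR-370 had none.

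The fourth group runs from miR-379 to miR-410 and holds 34 hairpins, the cluster often called after Mirg. Its transcription in neurons is known to follow activity through Mef2, and several of its miRs shape dendrites. It held 826 reads in replicate 1 and 903 in replicate 2, or 28.2% (26.6% to 29.9%) and 27.6% (26.1% to 29.1%) of the locus reads. Of the 34 hairpins, 13 had reads in both libraries, against 24.8% of all hairpin names, and 11 had none, against 65.2%. GENCODE starts Mirg at chr12:109729764-109749460, so 22 of the hairpins, miR-379 through miR-544, lie before the annotated gene. The other 12 lie inside Mirg, 8 of them overlapping an exon and 4 intronic.

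Reads in this cluster stood at its ends. At the start, the miR-379 and miR-411 hairpins, 1049 bases apart, held 39 and 343 reads in replicate 1 and 48 and 369 in replicate 2. The ratio of miR-411 to miR-379 was 8.79 (6.30 to 12.6) and 7.69 (5.68 to 10.6), so the libraries did not differ in it beyond counting error. At the end, the hairpins of miR-541, miR-409, miR-412, miR-369 and miR-410 lie within 1387 bases, the first 2 intronic to Mirg and the last 3 overlapping an exon. They held 298, 44, 3, 7 and 53 reads in replicate 1 and 346, 37, 0, 2 and 42 in replicate 2. The hairpins of miR-541 and miR-410 thus had more reads than the hairpins of miR-412 and miR-369 that lie between them, in both libraries. The ratio of miR-541 to miR-409 was 6.77 (4.92 to 9.52) and 9.35 (6.65 to 13.5). Between these ends, no hairpin exceeded 13 reads in a library.

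**Figure D2:**
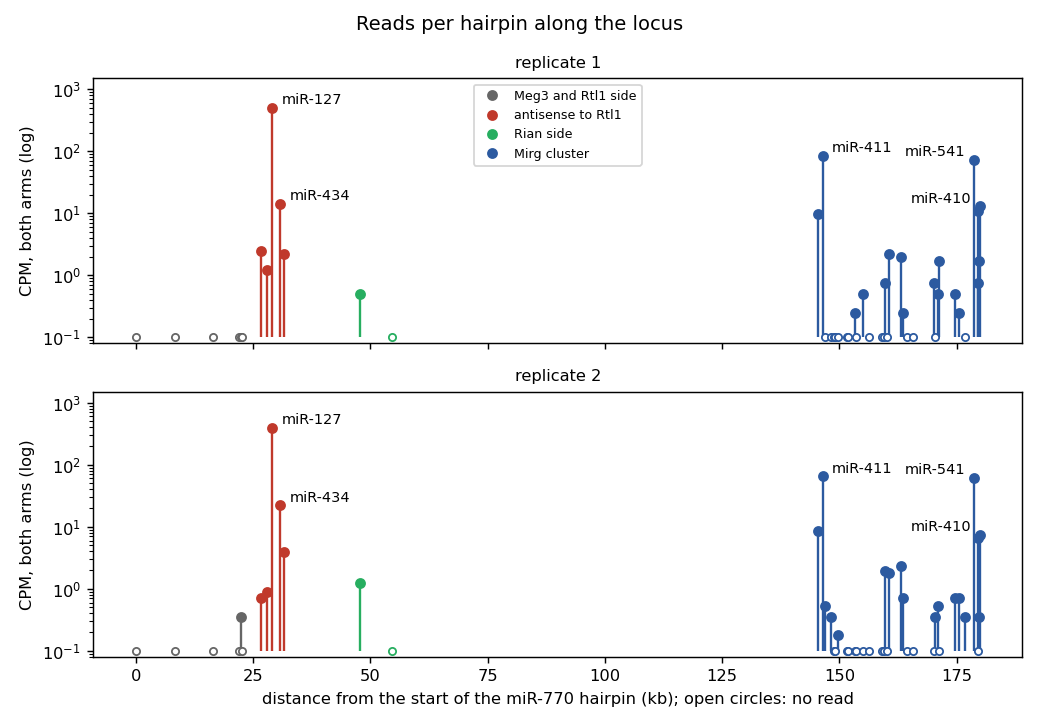
CPM per hairpin (both arms, log axis) against the distance in kb from the start of the miR-770 hairpin, for replicate 1 (top) and replicate 2 (bottom), coloured by place in the locus; open circles are hairpins without a read. The tallest points are miR-127 in the group antisense to Rtl1 and miR-411 and miR-541 near the ends of the Mirg cluster, in both libraries.

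A hairpin gives a 5p and a 3p arm, of which usually one is kept as the guide strand. At least 10 reads in each library were present for 7 locus hairpins. miR-127 was read almost entirely from its 3p arm, with 3 reads of the 5p arm among 2019 in replicate 1 and none among 2208 in replicate 2. miR-410 was also read from the 3p arm alone, with 53 and 42 reads. miR-541 was read from the 5p arm alone, with 298 and 346 reads, where the upper bound of the 3p share was at most 1.27%. miR-411 had 1.75% (0.804% to 3.76%) and 0.813% (0.277% to 2.36%) of its reads on the 3p arm. For miR-379 this was 5.13% (1.42% to 16.9%) and 8.33% (3.29% to 19.6%). miR-434 favoured the 3p arm less strongly, with 89.7% (79.2% to 95.2%) and 84.1% (76.8% to 89.5%).

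The exception was miR-409, whose leading arm was not the same in the 2 libraries. In replicate 1 the 3p arm held 16 of 44 reads, or 36.4% (23.8% to 51.1%). In replicate 2 it held 28 of 37 reads, or 75.7% (59.9% to 86.6%), and these intervals do not overlap. The interval of replicate 1 holds 50%, so a lead of the 5p arm there was not detectable beyond counting error at this depth. The 5p arm stood at 6.91 and 1.59 CPM, while the 3p arm stood at 3.95 and 4.96 CPM. Of all 159 hairpin names with 1 entry for each arm and at least 10 reads in each library, 3 had different leading arms in the libraries, or 1.89%, and miR-409 was 1 of them. The others, named after their values were seen, were miR-145a, with 51.2% and 47.3% of its reads on the 3p arm, and miR-151, with 46.3% and 59.6%. The arms of miR-409 lie at chr12:109743172-109743194 (5p) and chr12:109743204-109743225 (3p), and their mature sequences have different seeds.
miR-409-5p: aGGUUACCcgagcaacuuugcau
miR-409-3p: gAAUGUUGcucggugaaccccu

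**Figure D3:**
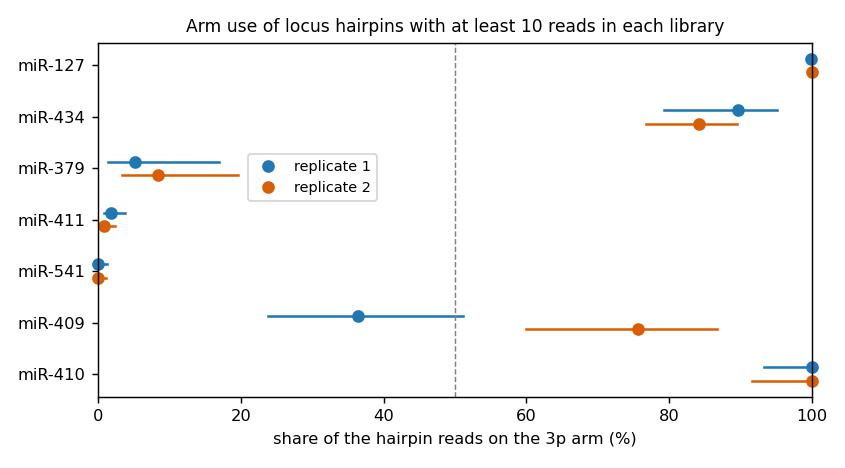
Share of a hairpin's reads on the 3p arm, in percent, for the 7 locus hairpins with at least 10 reads in each library, with Wilson 95% intervals; the dashed line marks equal use of both arms. The 2 libraries lie on the same side of it for 6 hairpins, while miR-409 stands at 36.4% in replicate 1 and 75.7% in replicate 2.

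The libraries were then set against each other entry by entry. Replicate 2 was compared with replicate 1 as a log2 ratio on the log2(CPM + 1) scale, over entries with at least 10 reads in both libraries together, a scale that understates differences of low entries. The median was -0.22 over the 15 locus entries that passed and -0.25 over all 323 that passed. Of the 15 entries 9 were lower in replicate 2, against 65.9% of all entries, and this count went to 5 of 15 with TMM normalization, against 46.1% of all. By at least 1.5-fold, 3 of the 15 were lower, against 31.3% of all entries, and 1 was higher, against 11.1%. Without a pseudocount, scaling by TMM or by the size factors of DESeq2 raises every such ratio by 0.35 or 0.34, and with it the median of all entries by 0.30, so directions near 0 depend on the scaling. The log2 ratio of the summed locus reads, without a pseudocount, was -0.32 with CPM, 0.03 with TMM and 0.02 with DESeq2.

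**Figure D4:**
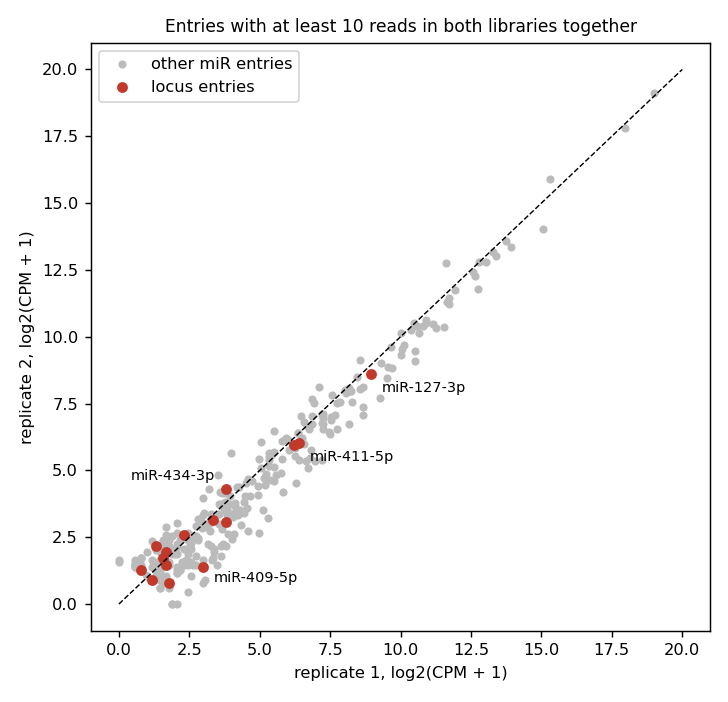
log2(CPM + 1) in replicate 2 against replicate 1 for the 323 miR entries with at least 10 reads in both libraries together, with the 15 locus entries in red and equality as a dashed line. The locus entries lie within the cloud of the others, from miR-127-3p at the top to entries of a few reads, where the scatter is widest.

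Within the locus, the counting intervals of the 3 leading entries overlapped. Their log2 ratios were -0.35 for miR-127-3p (exact 95% counting interval -0.44 to -0.26), -0.36 for miR-411-5p (-0.58 to -0.14) and -0.26 for miR-541-5p (-0.49 to -0.04). With TMM they were 0.00, -0.01 and 0.09. The ratio of the miR-127 hairpin to the miR-411 hairpin, which no scaling can change, was 5.89 (5.25 to 6.62) in replicate 1 and 5.98 (5.36 to 6.70) in replicate 2, although the hairpins lie in different groups of the locus. miR-434-3p had a log2 ratio of 0.55 (0.06 to 1.06), and 0.90 with TMM. miR-409-5p had -2.12 (-3.39 to -0.99), and -1.77 with TMM. Neither interval overlaps that of miR-127-3p. miR-410-3p had -0.82 (-1.44 to -0.20), whose interval does. Of the 15 locus entries with at least 10 reads in both libraries together, the counting interval of the CPM ratio lay below 0 for 6 (40%, against 41.2% of all 323 entries) and above 0 for 1 (6.67%, against 9.6%). With TMM these counts turned to 1 below 0 (6.67%, against 25.4%) and 2 above 0 (13.3%, against 26.3%), and DESeq2 size factors gave 1 and 2 as well.

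A few members resemble each other closely. The authors' first mapping step, to miR sequences, allowed no mismatch, so a read that covers a differing base fits 1 member of a pair alone. Which step gave the counts, and how reads that fit several miRs were counted, are not given in the sources used here. The sequences are shown so that the differing bases can be seen beside the counts.
miR-300-3p: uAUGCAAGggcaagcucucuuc
miR-381-3p: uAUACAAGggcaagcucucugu
miR-379-3p: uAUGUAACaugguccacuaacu
miR-411-3p: uAUGUAACacgguccacuaacc
miR-376b-5p: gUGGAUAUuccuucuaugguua
miR-376c-5p: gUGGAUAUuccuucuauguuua

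miR-300-3p (chr12:109724363-109724384) and miR-381-3p (chr12:109726870-109726891) differ at 3 of 22 positions, 1 of them in the seed, and had similar counts. miR-379-3p (chr12:109709102-109709123) and miR-411-3p (chr12:109710225-109710246) differ at 2 of 22 positions outside the seed, with 2 and 4 reads for the first and 6 and 3 for the second. The passenger arms of these neighbours thus share a seed, while their abundant 5p arms do not. miR-376b-5p (chr12:109723471-109723492) and miR-376c-5p (chr12:109722733-109722754) differ at 1 of 22 positions outside the seed, yet miR-376b-5p had 3 and 8 reads and miR-376c-5p none. Family members of miR-376 are known to be edited from A to I in the brain, and a mapping without mismatches leaves such reads out. Whether editing bears on the counts of this pair was not tested. Shared seeds were otherwise rare in the locus. The 90 sequences held 87 seeds, and 3 of these were held by a pair of entries. The pairs were miR-379-3p with miR-411-3p, miR-376b-5p with miR-376c-5p, and miR-410-5p with miR-494-5p, the last without reads.

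Entries with reads in both libraries started with U in 13 of 23 sequences (56.5%), against 17 of 53 (32.1%) for locus entries without a read. Over all miR entries with a sequence the same shares were 47.0% and 39.4%. The median GC content was 47.6% and 52.4% in the locus, and 47.4% and 54.5% over all entries. These are descriptions of sequences that share hosts and families, and no test was made.

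Other miRs of the same region had few reads. The names miR-1906, miR-3070, miR-3071, miR-1188, miR-1197, miR-1193, miR-3072, miR-299b, miR-496b and miR-1247 gave 19 entries. Of these, 1 had a read in both libraries, against 20% of all 1886 entries. The entry read in both was miR-1247-5p, from the Dio3 end of the domain, with 51 reads (12.6 CPM) in replicate 1 and 73 reads (12.9 CPM) in replicate 2. By mean CPM this level lies between those of miR-434-3p and miR-379-5p. miR-1247-3p had 9 reads in replicate 2 alone. miR-3071-5p, transcribed from the strand opposite miR-136, had 3 reads in replicate 1 alone.

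The locus was also set beside other imprinted miRs, without a test, since lists of miRs are not replicates. miR-335 from Mest, miR-296 and miR-298 from the Gnas domain, miR-483 from Igf2 and miR-675 from H19 gave 10 entries with 73 reads in replicate 1 and 45 in replicate 2. All reads lay on miR-335, miR-296 and miR-298, with 38 and 16 on miR-296-5p. The paternally expressed Sfmbt2 intron cluster was taken by name, as the 68 entries that start with miR-297, miR-466, miR-467 or miR-669. Their places in the genome were not checked, so some may lie outside it. Many of them are near-identical, so their counts are uncertain. Reads in both libraries were present for 16 of these entries, or 23.5%, against 20% of all entries. The 68 entries held 307 and 181 reads in all, or 0.00758% and 0.00320% of the miR reads. The log2 ratio of replicate 2 to replicate 1 was -1.24 for this cluster (-0.89 with TMM) and -0.32 for the Dlk1-Dio3 locus (0.03 with TMM).

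Marker miRs were read in the same libraries, since the preparation could hold cells other than sperm. Over all hairpin names outside joined entries 34.8% had a read in some library, and over all entries 20% had a read in both. Of 12 names of germ-cell miRs 6 had reads, with miR-449b, miR-449c, miR-743b, miR-871, miR-880 and miR-881 at 0. For miR-743b, miR-871, miR-880 and miR-881 only a 5p entry was listed, so these zeros say nothing of their 3p arms. The summed share of the germ-cell list was 0.393% and 0.165% of the miR reads, mostly on miR-34c-5p. The 5 brain names all had reads in some library, with 0.0514% and 0.0218%, of which miR-9-5p held 1653 and 939 reads. Epithelial miRs took 1.06% and 0.855%, with 9 of 10 entries read in both libraries. Smooth muscle and stromal miRs took 4.13% and 6.26%, with 8 of 10 entries and miR-145b at 0. Nearly all of this was miR-143-3p, with 165421 of 167378 reads in replicate 1 and 349579 of 353450 in replicate 2. Blood miRs took 0.00852% and 0.0176%, for 3 of 4 names, as miR-142 matched no entry by its exact name. Names with an added letter were not searched, so the blood share may leave out reads of this miR. Skeletal muscle miRs took 0.00222% and 0.00239%, with miR-133b at 0. The log2 ratio of the summed reads, replicate 2 to replicate 1, was -1.25 for germ cells, -1.24 for brain and -0.31 for epithelium. It was 0.60 for smooth muscle and stroma, 1.05 for blood and 0.10 for skeletal muscle. Members of a list could differ from its sum. In blood miR-451a rose from 44.2 to 88.9 CPM while miR-223-3p fell from 15.8 to 9.74. In brain miR-9-5p fell from 408 to 166 CPM while miR-124-3p stood at 8.89 and 7.97. Over all 323 entries with at least 10 reads together the median log2 ratio was -0.25, with 1 CPM added. The value of the locus, -0.32, lay nearest to that of epithelium, -0.31, but both stood near this median. With TMM they were 0.03 and 0.04. A list that follows most entries would lie there too, and each of the 2 values rests mostly on 1 entry. For epithelium this was miR-141-3p, with 33874 of 43063 reads in replicate 1 and 39972 of 48281 in replicate 2. Other epithelial entries differed from it, as miR-429-3p went from 1033 to 633 CPM and miR-141-5p from 7.16 to 9.56 CPM. The part of any of these cells in the locus reads was not tested.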

How the data were processed

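Small RNA of 2 sperm libraries was sequenced. The authors trimmed low-quality ends and adapters with cutadapt 1.8.1, dropped reads under 15 bases and mapped with Bowtie 1.1.2, first to miR and piRNA sequences without mismatches, later with 1 mismatch to other references. HTSeq, mm10 and GRCm38 are named in the submitters' processing notes, and the labels name a TruSeq RNA v2 kit. The deposited values are raw read counts per mature miR. The annotation release is not given in the sources used here. A mapping without mismatches leaves out edited or extended reads. Summary lines were kept out of totals, and reads assigned to no miR made up 38.1% and 26.3% of the listed reads.

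CPM was computed from miR reads. Wilson intervals cover shares, exact binomial intervals cover ratios, and 3 reads is the floor. Named entries are the 20 with the most reads, ties by name, and arms needed 10 reads per library. Scaling alternatives came from edgeR 4.0.16 (TMM) and DESeq2 1.42.0 in R 4.3.3. Other values used Python 3.11.15, numpy 2.4.6, pandas 2.3.3, scipy 1.17.1 and matplotlib 3.10.9, and computations were tested on simulated data. Members, lists and alternatives were chosen with earlier results of these data known.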

Additional observations from a re-analysis of the deposited data

Results flagged for a closer look

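Reads assigned to no miR lie outside the comparisons above and stood above the level that 3 reads can show: they made up 38.1% of the reads listed for replicate 1 and 26.3% for replicate 2, and whether any of them come from the Dlk1-Dio3 locus was not tested.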

How the results depend on the processing

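The number of locus entries with a read in both libraries, 24, was 13 with at least 5 reads and 7 with at least 10 reads in each library. Under the other alternatives it was between 16 and 24. In 1 library taken alone 30 to 33 entries had a read, a different count that asks for no read in the other library. The locus share of the miR reads, 0.0652%, was 0.0437% of all listed reads, 0.312% of miR reads without miR-10a and miR-10b, and 0.0207% without miR-127-3p. With 1 library alone it was 0.0580% to 0.0723%, and 0.0642% from entries with at least 10 reads in both libraries together. The median log2 ratio of the locus entries, -0.22, turned to 0.085 with TMM and to 0.077 with DESeq2 size factors. Both raise all ratios alike only where no pseudocount is added. Over the 39 locus entries with any read the median turned to 0.15, where the median of all 548 such entries was -0.32. Entries added by this setting had fewer than 10 reads together. The locus and all-entry medians lay close with at least 10 reads, at -0.22 and -0.25, and with at least 50 reads, at -0.30 and -0.31. The locus median stayed below 0 with the other pseudocount and with at least 50 reads. miR-127-3p held 68.1% of the locus reads, and 67.4% to 68.8% in 1 library alone. The number of hairpins with the same leading arm, 6 of 7, was 12 of 13 with at least 3 reads in each library. Of 40 mean CPM values of named entries under TMM or DESeq2, 0 moved by 1 SD or more. Both scalings raise one library and lower the other, and of 2 values each is within 1 SD of the mean by construction, so neither these means nor the ranges for 1 library show stability. No paired analysis was possible because there is 1 group. Little can be said of most entries at these depths: 55 had no read and 15 had reads in 1 library alone. Whether such miRs are absent or lie below the floor was not tested.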
